A study of Mus musculus with 8 samples.

Results

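The genes described here are 36 genes of Wnt signalling: 19 ligand genes (Wnt1 to Wnt16), 12 receptor genes (the 10 Frizzled genes Fzd1 to Fzd10 and the co-receptor genes Lrp5 and Lrp6) and 5 genes of the inner pathway (Ctnnb1, Axin2, Apc, Lef1 and Tcf7l2). They were found by symbol among 21887 protein-coding genes of the RefSeq annotation of mouse build GRCm38.p6, whose coordinates are those of mm10, and each was taken as its gene body with 1 kb on either side, called its window here. The members were chosen by role with the peaks of all 6 lists in these windows already known, so the peak counts below are descriptions with no test, and each stands beside the same count over all protein-coding genes.

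The study measured, by chromatin immunoprecipitation and sequencing, where Mgea5, Panx2 and Polr1c lay in the genome of neural progenitor cells. All samples carried the same labels otherwise: primary hippocampal cells of male mice of the strain C57BL/6, grown in culture with B27 supplement. Each protein had 2 samples with 1 peak list each, and 2 Input libraries are not analysed here. The labels name no treatment, genotype or age and do not say whether replicates were separate cultures, and the peak lists hold no expression values with which to check the labelled cell type.

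Mgea5 is the enzyme that removes O-linked N-acetylglucosamine from nuclear and cytoplasmic proteins, Panx2 is a pannexin, a family of large-pore membrane channel proteins, and Polr1c belongs to both RNA polymerase I and RNA polymerase III, which transcribe ribosomal and transfer RNA genes. Wnt ligands are secreted lipid-modified glycoproteins that bind Frizzled receptors together with Lrp5 or Lrp6. Binding stops the destruction complex, in which Apc and Axin2 act as scaffolds, from removing beta-catenin, the product of Ctnnb1, which then joins the DNA-binding proteins Lef1 and Tcf7l2 on target genes. In the hippocampus this pathway is known for its part in the formation of the region and in the renewal and neuronal differentiation of its progenitors.

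The lists differed greatly in length, which bears on every count. For Mgea5, 536877 peaks were listed in replicate 1 and 521566 in replicate 2, with a median fold enrichment of 1.71 in each. The Panx2 lists held 145405 and 478662 peaks with median folds of 1.80 and 1.84, and the Polr1c lists 826 and 35927 peaks with median folds of 3.05 and 2.75. Peaks with a -log10 q of at least 2 (q of at most 0.01) made up 0.0201% and 0.0209% of the Mgea5 lists. They made up 0.00758% and 0.0772% of the Panx2 lists and 27.5% and 3.75% of the Polr1c lists. Nearly all Mgea5 and Panx2 peaks, in and outside the Wnt genes, thus had a q above 0.01, and the sources used here do not give the number of reads behind them.

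A choice of start sites is shown first. Wnt2, whose start a replicate 2 Polr1c peak covered, and Fzd7, whose start no list covered, are not among them. Wnt7a and Fzd1 were the only members with Polr1c peaks in both replicates, Fzd4, Fzd9 and Ctnnb1 had a replicate 2 Polr1c peak over the start base, and Wnt8b, a ligand gene expressed in the embryonic forebrain, is set beside them as a start that no list covered. Each run is the 250 bases before the start site, 5′ to 3′ on the strand of the gene, from RefSeq on GRCm38.p6, with the bases under a Polr1c peak of either replicate in capitals. The runs lie at chr6:91411354-91411603 on the minus strand (Wnt7a), chr5:4758217-4758466 on the minus strand (Fzd1), chr7:89404116-89404365 on the plus strand (Fzd4), chr5:135251048-135251297 on the minus strand (Fzd9), chr9:120933150-120933399 on the plus strand (Ctnnb1) and chr19:44493222-44493471 on the plus strand (Wnt8b).
Wnt7a: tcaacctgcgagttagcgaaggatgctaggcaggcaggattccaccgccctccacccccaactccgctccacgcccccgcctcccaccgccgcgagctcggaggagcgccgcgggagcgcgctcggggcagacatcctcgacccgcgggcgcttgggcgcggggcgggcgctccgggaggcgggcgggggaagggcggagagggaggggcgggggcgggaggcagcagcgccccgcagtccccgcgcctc
Fzd1: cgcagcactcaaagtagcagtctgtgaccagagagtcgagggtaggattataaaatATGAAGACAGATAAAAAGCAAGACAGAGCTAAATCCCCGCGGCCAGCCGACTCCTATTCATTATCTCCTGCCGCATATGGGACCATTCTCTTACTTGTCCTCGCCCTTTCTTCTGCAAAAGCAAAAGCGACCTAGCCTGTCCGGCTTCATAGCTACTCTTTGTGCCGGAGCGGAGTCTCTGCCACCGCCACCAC
Fzd4: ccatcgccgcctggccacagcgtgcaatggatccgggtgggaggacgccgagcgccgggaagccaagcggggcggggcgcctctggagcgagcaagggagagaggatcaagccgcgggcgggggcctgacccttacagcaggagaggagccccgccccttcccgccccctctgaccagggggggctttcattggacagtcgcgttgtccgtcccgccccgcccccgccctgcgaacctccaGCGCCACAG
Fzd9: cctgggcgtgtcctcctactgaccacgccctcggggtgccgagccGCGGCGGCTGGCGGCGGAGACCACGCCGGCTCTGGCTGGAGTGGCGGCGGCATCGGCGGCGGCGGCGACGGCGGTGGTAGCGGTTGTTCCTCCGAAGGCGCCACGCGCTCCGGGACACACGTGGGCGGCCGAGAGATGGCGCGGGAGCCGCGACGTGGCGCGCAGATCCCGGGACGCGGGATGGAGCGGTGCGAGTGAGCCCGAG
Ctnnb1: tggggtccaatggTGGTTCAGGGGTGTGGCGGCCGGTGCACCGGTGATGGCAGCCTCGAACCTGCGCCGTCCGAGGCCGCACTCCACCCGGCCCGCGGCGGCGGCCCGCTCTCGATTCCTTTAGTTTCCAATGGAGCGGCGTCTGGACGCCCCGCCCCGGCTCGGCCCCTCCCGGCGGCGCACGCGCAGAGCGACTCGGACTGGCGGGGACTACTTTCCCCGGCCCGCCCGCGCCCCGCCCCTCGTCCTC
Wnt8b: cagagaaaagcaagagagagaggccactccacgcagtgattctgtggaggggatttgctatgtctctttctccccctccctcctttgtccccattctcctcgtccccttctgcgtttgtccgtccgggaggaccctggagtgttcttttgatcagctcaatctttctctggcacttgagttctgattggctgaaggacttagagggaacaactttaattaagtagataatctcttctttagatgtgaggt

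The capitals take up 194 bases of the Fzd1 run, 9 of the Fzd4 run, 205 of the Fzd9 run and 237 of the Ctnnb1 run, and none of the Wnt7a run, because both Polr1c peaks of Wnt7a lay just after its start. Over the 300 bases from 250 before to 50 after the start, the promoters of Wnt7a, Fzd4, Fzd9 and Ctnnb1 held 76.0%, 72.7%, 78.0% and 75.3% G and C. Fzd1 held 54.0%, the lowest of these 5 genes, and Wnt8b 48.3%, the lowest of the 25 members with a promoter in the RefSeq table. The other 11 members without an entry there are Wnt5a, Wnt7b, Wnt8a, Wnt10a, Fzd2, Fzd3, Fzd6, Fzd8, Lrp5, Lrp6 and Apc, and they are left out of all statements on start sites.

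Mgea5 peaks lay in nearly every Wnt gene. Both replicates had a peak in the windows of 35 of 36 members, against 82% of all protein-coding genes. All 19 ligand genes, 11 of 12 receptor genes and all 5 inner pathway genes were among them, and the exception was Fzd2, which had 3 peaks in replicate 1 and none in replicate 2. In single lists a peak lay in 36 members for replicate 1, against 88.8% of all protein-coding genes, and in 35 for replicate 2, against 85%. Within 1 kb of either end of the gene, both replicates had a peak in 31 members, against 64.3% of all protein-coding genes, replicate 1 in 35, against 81.2%, and replicate 2 in 32, against 71.2%. No Mgea5 peak in any member reached a -log10 q of 2, which 0.429% and 0.498% of all protein-coding genes did in replicates 1 and 2.

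Panx2 peaks of both replicates lay in 25 of 36 members, against 57.1% of all protein-coding genes, and the shorter replicate 1 list set that count. Replicate 2 had a peak in all 36 windows, against 88.6% of all protein-coding genes, and replicate 1 in 25, against 59.5%. The 11 members with none in replicate 1 were the ligand genes Wnt1, Wnt4, Wnt10b, Wnt11 and Wnt16, the receptor genes Fzd1, Fzd3, Fzd4, Fzd8 and Fzd10, and Ctnnb1. At the gene ends both replicates had a Panx2 peak in 8 members, against 20.1% of all protein-coding genes, while replicate 1 by itself had one in 8, against 23.5%, and replicate 2 in all 36, against 82.1%. No Panx2 peak in a member reached a -log10 q of 2, which 0.00457% and 0.905% of all protein-coding genes did in replicates 1 and 2. These counts rest on weak peaks: with a fold of at least 2, both replicates had a peak in 11 members for Mgea5, against 21.4% of all protein-coding genes, and in 4 for Panx2, against 16.9%. With a -log10 p of at least 2 the counts were 9 for Mgea5, against 16.8%, and 0 for Panx2, against 1.02%.

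A count of genes with a peak grows with gene length, so the share of each window under peaks was taken as well. In replicate 1 of Mgea5 the median member window was covered to 31.4%, against 19.2% over all protein-coding genes, and in replicate 2 to 16.9%, against 12.5%. For Panx2 it was 2.58%, against 2.24%, in replicate 1 and 31.4%, against 18.7%, in replicate 2. Cover of the Wnt genes stood further above that of all genes in Mgea5 replicate 1 and Panx2 replicate 2 than in the other replicate of each protein. In Mgea5 replicate 1, 13 of 36 members were in the upper 10% of all protein-coding genes by cover, and in Panx2 replicate 2, 11 were, against 5 in Mgea5 replicate 2 and 2 in Panx2 replicate 1.

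**Figure D1:**
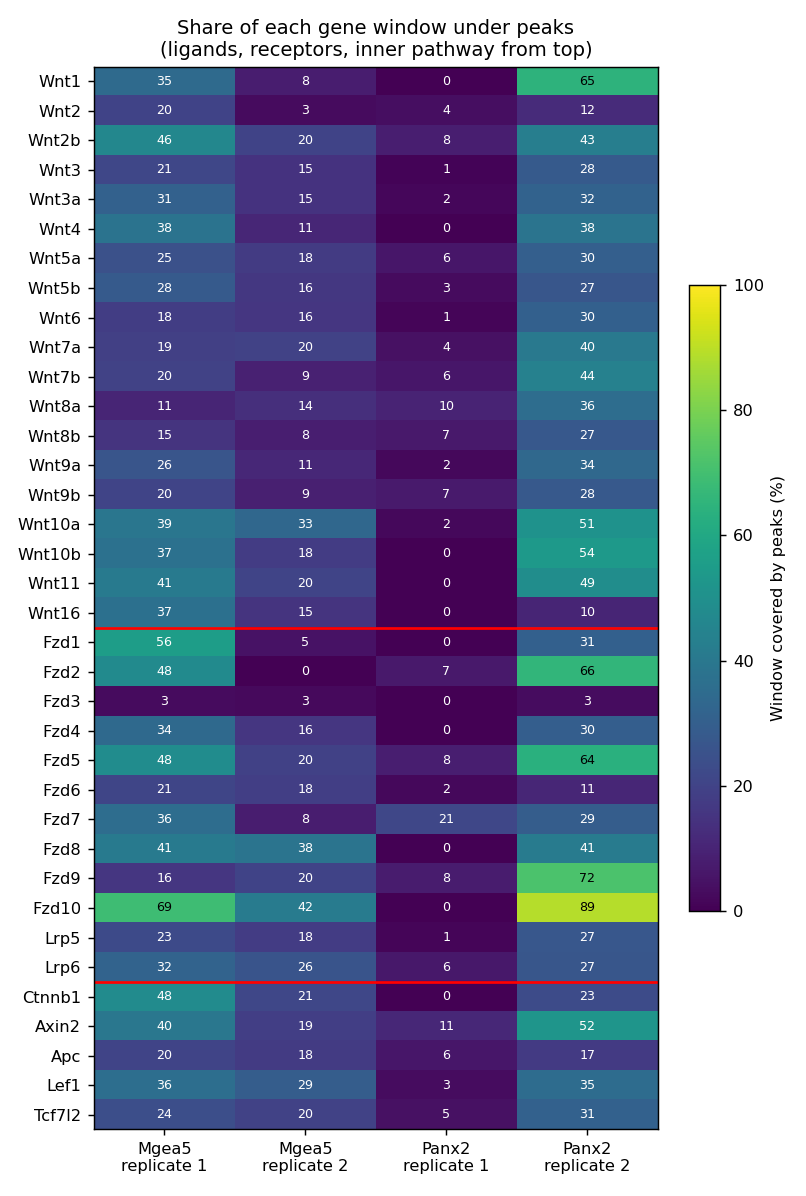
Percent of each gene window under peaks (colour and printed value) for the 36 Wnt genes in rows and the 4 Mgea5 and Panx2 lists in columns; red lines part ligands, receptors and inner pathway genes. Mgea5 replicate 1 and Panx2 replicate 2 are the well-filled columns, Fzd10 is the most covered row at 69.0% and 88.9% in them, and Fzd3 is nearly empty.

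Among the ligand genes, median cover was 26.5% and 14.6% in Mgea5 replicates 1 and 2 and 2.12% and 33.8% in Panx2 replicates 1 and 2. Wnt1, which encodes a founding ligand of midbrain and dorsal neural tube development, was covered to 34.5% and 8.09% by Mgea5, 0% and 64.7% by Panx2, and 0% and 3.25% by Polr1c. Wnt2b, expressed in the embryonic cortical hem beside the hippocampal primordium, reached 46.3% and 20.2% for Mgea5 and 8.46% and 42.7% for Panx2. These values put Wnt2b at the top of the ligand genes in Mgea5 replicate 1 and Wnt1 at the top in Panx2 replicate 2, while Wnt1 was empty in Panx2 replicate 1. The protein-coding gene St7l shares all or part of the Wnt2b window, so that cover cannot be given to Wnt2b by itself.

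Wnt10a was covered to 39.4% and 33.4% by Mgea5, 2.01% by Panx2 replicate 1 and 51.0% by Panx2 replicate 2. Wnt10b, its close paralogue, was covered to 37.3% and 17.9% by Mgea5, 0% by Panx2 replicate 1 and 53.8% by Panx2 replicate 2. Wnt11, best known for signalling that does not pass through beta-catenin, was covered to 41.0% and 20.4% by Mgea5, 0% by Panx2 replicate 1 and 48.9% by Panx2 replicate 2. In all 3, Panx2 replicate 2 covered more of the window than either Mgea5 list did.

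Wnt2 was covered to 20.2% and 3.10% by Mgea5 and 3.73% and 12.4% by Panx2. Its Mgea5 replicate 2 cover was the lowest of the ligand genes. Wnt16, a ligand gene known from bone, was covered to 37.1% and 14.9% by Mgea5, 0% by Panx2 replicate 1 and 10.4% by Panx2 replicate 2. That Panx2 replicate 2 cover was the lowest of the ligand genes. Wnt4, known from kidney and female reproductive tract development, had 38.1% and 10.8% for Mgea5, 0% for Panx2 replicate 1 and 38.4% for Panx2 replicate 2. So Wnt16 and Wnt4 had similar cover in Mgea5 replicate 1 and differed in Panx2 replicate 2. The ligand genes Wnt3 and Wnt3a, whose products act through beta-catenin and which are expressed in the cortical hem, lay near the middle, with 21.2% and 30.9% in Mgea5 replicate 1 and 28.1% and 31.6% in Panx2 replicate 2. The windows of Wnt3 and Wnt9b overlap, so some of their peaks are the same.

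The receptor genes were the shortest, with a median body of 5.28 kb against 22.9 kb for the ligand genes and 102 kb for the inner pathway genes. Their median cover was 34.9% and 18.1% for Mgea5 and 1.66% and 30.3% for Panx2. Fzd10, a single-exon Frizzled gene, had the highest cover of all members in 3 of the 6 lists. It was covered to 69.0% and 41.8% by Mgea5, 0% by Panx2 replicate 1 and 88.9% by Panx2 replicate 2, and had no Polr1c peak. That cover came from 2 peaks in each Mgea5 list and 1 in Panx2 replicate 2, whose highest folds of 1.89, 2.23 and 1.88 were above those of 45.8%, 90.8% and 22.1% of all protein-coding genes. The lncRNA gene Fzd10os shares the window.

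Fzd9, a gene first described in the human region deleted in Williams syndrome, was covered to 15.8% and 20.2% by Mgea5, 7.52% and 71.8% by Panx2, and 0% and 8.64% by Polr1c. Fzd2, the one gene with an empty Mgea5 list, was covered to 47.8% and 0% by Mgea5, 6.65% and 65.8% by Panx2, and 0% and 3.98% by Polr1c. Fzd5, a receptor known from eye development, was covered to 48.5% and 19.5% by Mgea5, 8.21% and 63.6% by Panx2, and 0% and 3.13% by Polr1c. In each of these short genes Panx2 replicate 2 covered most of the window and Panx2 replicate 1 under 10% of it.

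Fzd1 was covered to 55.5% and 4.84% by Mgea5, 0% and 30.7% by Panx2, and 5.83% and 2.52% by Polr1c. Fzd8 was covered to 41.1% and 38.4% by Mgea5, 0% and 41.5% by Panx2, and 0% and 9.71% by Polr1c. Fzd4, a receptor of retinal vessel development, was covered to 34.1% and 15.9% by Mgea5, 0% and 30.0% by Panx2, and 0% and 3.99% by Polr1c. Fzd8 was the member with the most Polr1c replicate 2 cover and the only one of these 3 in which the Mgea5 replicates had about equal cover. Fzd7, a receptor of stem and progenitor cells, had the highest Panx2 replicate 1 cover of all members, 21.1%.

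Fzd3, which serves axon guidance and planar cell polarity, stood apart. It was covered to only 2.91% and 2.56% by Mgea5 and to 0% and 3.34% by Panx2, and had no Polr1c peak, although its body is 70.0 kb long. It lies beyond 45 Mb on chromosome 14, where all lists were sparse. The 496 protein-coding genes there had median cover of 2.47% and 0.422% for Mgea5 and 0% and 3.33% for Panx2. Fzd3 was close to these medians except in Mgea5 replicate 2, where it was higher. In the 100 kb on either side of the Fzd3 window, cover was 7.05% and 2.77% for Mgea5 and 0% and 5.33% for Panx2. Wnt5a, on the same chromosome but before that point, was covered to 24.7% and 17.6% by Mgea5 and 5.98% and 30.2% by Panx2.

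The co-receptor genes Lrp5 and Lrp6 are long, 102 and 120 kb. Lrp5 was covered to 22.5% and 17.7% by Mgea5, 1.29% and 27.2% by Panx2, and 0% and 0.392% by Polr1c. Lrp6 was covered to 31.9% and 26.1% by Mgea5, 6.48% and 26.8% by Panx2, and 0% and 0.849% by Polr1c. Lrp6 had more cover than Lrp5 in each Mgea5 list and in Panx2 replicate 1, and both had almost the same in Panx2 replicate 2.

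The 5 inner pathway genes had median cover of 36.2% and 19.8% for Mgea5 and 4.58% and 31.2% for Panx2. Ctnnb1 was covered to 48.4% and 21.1% by Mgea5 and 0% and 22.9% by Panx2. Axin2, which is also a feedback target of the pathway, was covered to 39.8% and 18.6% by Mgea5 and 11% and 52.3% by Panx2. Axin2 thus had the highest Panx2 cover of the group in both replicates and Ctnnb1 the highest Mgea5 cover in replicate 1. Apc, at 20.3% and 17.5% for Mgea5 and 6.02% and 17.1% for Panx2, had the least in Mgea5 and in Panx2 replicate 2. The transcription factor genes Lef1 and Tcf7l2 were covered to 36.2% and 24.1% in Mgea5 replicate 1 and to 35.5% and 31.2% in Panx2 replicate 2.

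Short and long members differed in how far they stood from other genes of their length. The 11 members with a body of at most 10 kb had a median cover of 53.8% in Panx2 replicate 2, against 17.1% over the 7926 protein-coding genes of that length. The 25 longer members had 30.2%, against 18.9% over 13961 genes. In Mgea5 replicate 1 the same medians were 37.3%, against 15.0%, for short genes and 24.7%, against 20.3%, for long ones. Cover of the short Wnt genes was therefore over 2 times that of short genes in general in both lists, and in Mgea5 replicate 2 it was 15.9%, against 6.94%. In Panx2 replicate 1 it was 0% for short members, against 0%, and 3.04% for long members, against 3.76%. Across the 36 members, cover fell with body length in Mgea5 replicate 1 (Spearman's rho -0.44) and Panx2 replicate 2 (rho -0.56), whereas the number of peaks followed length (rho 0.92 and 0.90). Cover showed no such fall in Mgea5 replicate 2 (rho 0.03) or Panx2 replicate 1 (rho 0.13). Over all protein-coding genes, rho of cover with length was 0.12 in Mgea5 replicate 1 and 0.02 in Panx2 replicate 2. It was 0.28 in Mgea5 replicate 2 and 0.40 in Panx2 replicate 1. These are descriptions over genes of the same libraries.

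**Figure D2:**
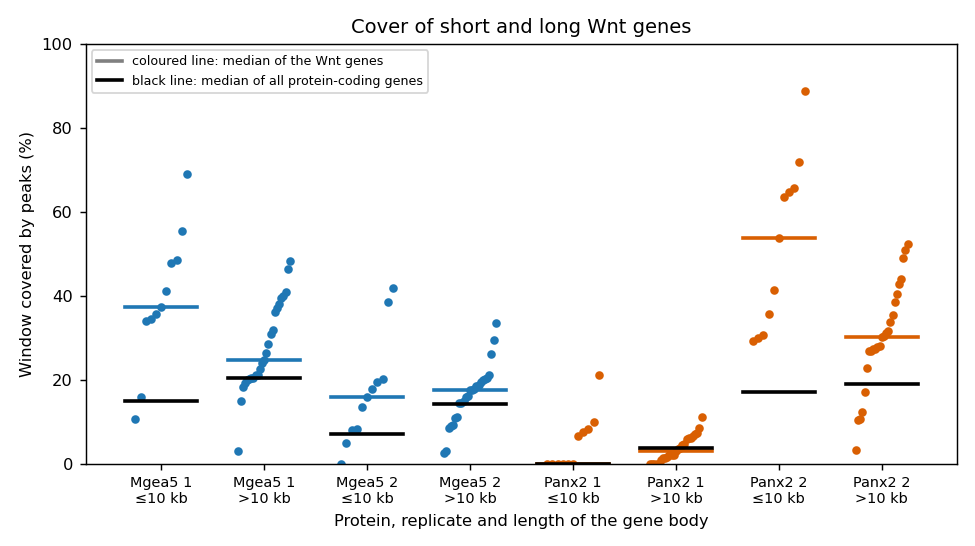
Percent of the window under peaks for each Wnt gene (points, in rising order) in 4 lists, split at a gene body of 10 kb; coloured lines are medians of the Wnt genes and black lines medians of all protein-coding genes of that length. The 11 short Wnt genes have a median of 53.8% in Panx2 replicate 2, against 17.1% for short genes in general.

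The surroundings were also well covered. In the 100 kb on either side of the member windows, median cover was 22.2% and 16.6% for Mgea5, against 19% and 13.8% around all protein-coding genes, and 4.64% and 21.6% for Panx2, against 4.23% and 17.8%. The window had more cover than its own surroundings in 27 of 36 members for Mgea5 replicate 1, against 53.1% of all protein-coding genes, and in 13 for replicate 2, against 45.1%. For Panx2 it did in 11 members for replicate 1, against 34.5%, and in 32 for replicate 2, against 54%. For Polr1c it did in 2 for replicate 1, against 1.46%, and in 20 for replicate 2, against 32.1%. In Mgea5 replicate 2 and Panx2 replicate 1 the members' counts were thus not above those of all genes.

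Around the start sites the members followed the same split between lists. Among the 25 members with a RefSeq start, a Panx2 replicate 2 peak lay over the start base in 20, against 40.3% of 17492 protein-coding genes, and a Panx2 replicate 1 peak in 1, Wnt7a, against 2.78%. Wnt7a was thus the only member with both Panx2 replicates over its start, against 0.8% of protein-coding genes. A Mgea5 replicate 1 peak lay over it in 9, against 33.8%, and a Mgea5 replicate 2 peak in 1, Wnt16, against 14%. No member had both Mgea5 replicates over its start, which 8.4% of protein-coding genes did. A Mgea5 replicate 1 peak and a Panx2 replicate 2 peak met over the start in 8 members (Wnt1, Wnt2, Wnt2b, Wnt6, Wnt9b, Fzd5, Fzd10 and Ctnnb1), against 19.5% of protein-coding genes. Only the starts of Wnt8b and Fzd7 were under no peak of any list, which held for 40.2% of protein-coding genes.

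In Panx2 replicate 2 and Mgea5 replicate 1 more members than genes in general were covered at a distance from the start. At 2000 bases before the start, Panx2 replicate 2 peaks covered 17 of 25 members (68%), against 17.1% of protein-coding genes, and at 2000 bases after it 11 (44%), against 19.7%. At 1000 bases before the start, Mgea5 replicate 1 peaks covered 15 of 25 members (60%), against 19.4% of protein-coding genes, and at the start itself 36%, against 33.8%. The highest share in that list was 60% of members, at 1000 bases before and 500 after the start, against 36.3% of protein-coding genes, at 250 bases after it. In the other lists members stood above genes in general at some positions and below them at others. Mgea5 replicate 2 covered 0 members at 4000 bases before the start, against 10.6% of protein-coding genes. At 4500 bases before it that list covered 24%, against 11.6%. Panx2 replicate 1 covered 4%, against 4.40%, at 2000 bases before the start and 16%, against 4.71%, at 3750 after it.

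**Figure D3:**
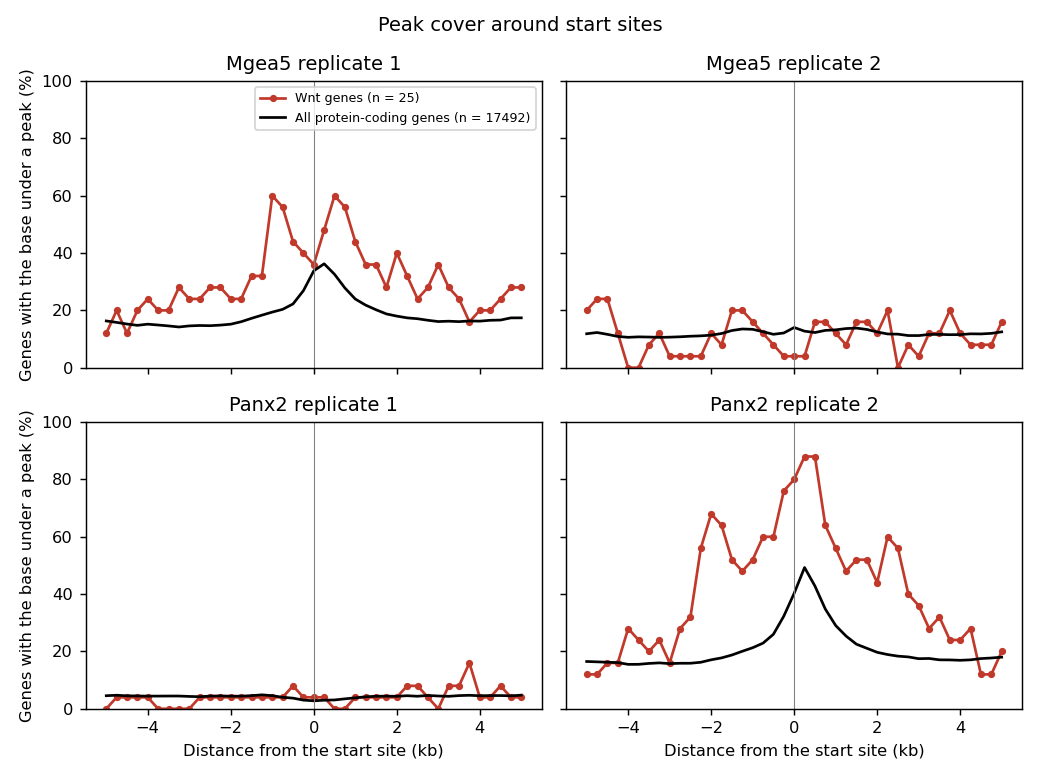
Percent of genes with a given position under a peak, by distance from the start site in kb (negative is before it), for 25 Wnt genes (red, with points) and 17492 protein-coding genes (black) in the 4 Mgea5 and Panx2 lists. Panx2 replicate 2 covers 80% of the Wnt starts, against 40.3% of all, and Mgea5 replicate 1 is highest on either side of the Wnt starts.

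Most of these starts, though not all, had promoters rich in G and C. The 25 promoters held a median of 71.7% G and C, against 56.3% over all protein-coding promoters, with a median observed over expected CpG of 0.863, against 0.577, and when all promoters were split into 5 classes of about equal size by GC content, 20 of the 25 fell in the richest class. Cover by Panx2 replicate 2 moved with composition across all genes: its peaks lay over 8.75% of starts in the lowest GC class and 76.5% in the highest. In that highest class Panx2 replicate 2 covered 17 of the 20 member starts, against 76.5% of all starts of the class, which is a smaller distance than that of the 20 of 25 members against 40.3% of all genes. Mgea5 replicate 1 covered 8 of the 20, against 49.8%, and Polr1c replicate 2 covered 3, against 6.07%. The part of composition in the cover of the Wnt genes was not tested.

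**Figure D4:**
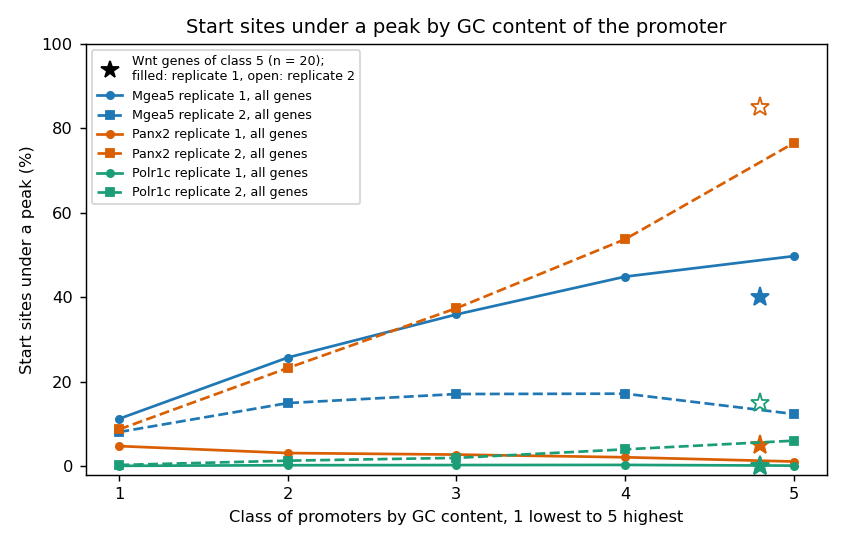
Percent of start sites under a peak by class of promoter GC content (1 lowest, 5 highest), for the 20 Wnt genes of the highest class (stars, drawn to its left) and for all protein-coding genes (lines, 6 lists). Panx2 replicate 2 covers 17 of 20 Wnt starts there, against 76.5% of all starts of that class and 8.75% of the lowest, and the stars of Mgea5 replicate 2 and Polr1c replicate 1 coincide at 0.

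Short motifs in the promoters were searched on both strands as letters only. The GC box GGGCGG stood in 21 of 25 member promoters, against 46.3% of all protein-coding promoters. CTTTGAT, a core letter string of Lef1 and Tcf7l2 binding, stood in 1 (Wnt11), against 3.28%, and CTTTGAA in none, against 4.74%. TATAAA stood in 2 (Wnt11 and Fzd1), against 13.3%. GTTCGANNC, the string of the B box at which RNA polymerase III genes are bound, stood in 1 (Ctnnb1, in its printed run), against 0.920%. The member promoters held a median of 71.7% G and C, against 56.3%, and these motif shares were not compared within classes of GC content. A match is a description of these letters and no record of binding.

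Folds were modest throughout for Mgea5. Ranked by the geometric mean over replicates of the highest fold in the window, the first 5 members were Lrp6 (2.26 and 2.53 in replicates 1 and 2), Apc (2.14 and 2.51), Lef1 (2.3 and 2.22), Wnt9a (2.42 and 2.05) and Wnt3a (2.20 and 2.24). The lowest q among those peaks was 0.380, for Apc in replicate 2. Wnt9a, at 26.7 kb, was the shortest of the 5, and the highest fold followed body length across the members (rho 0.56 and 0.54). Fzd9 had the lowest pair with peaks in both lists, 1.61 and 1.70. For comparison, the median highest fold over members was 2.0 and 1.90, against 1.92 and 1.87 over all protein-coding genes. Among genes with a body over 10 kb it was 2.05 and 1.93, against 2.02 and 1.97. Among shorter genes it was 1.89 and 1.73, against 1.72 and 1.65.

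For Panx2 the first 5 were Tcf7l2 (1.90 and 3.28), Fzd6 (1.81 and 3.11), Lef1 (2.0 and 2.74), Wnt9b (1.80 and 2.78) and Wnt5b (2.03 and 2.46). In replicate 2 the best peak of Tcf7l2 had q 0.0435 and that of Fzd6, a planar polarity receptor gene, q 0.0448, while every replicate 1 peak of these 5 genes had q 1. The median highest fold over members was 1.80 and 2.36, against 1.76 and 2.18 over all protein-coding genes. It followed body length (rho 0.47 and 0.56), and the median body was 24.8 kb in members, against 17.2 kb. Among genes with a body over 10 kb it was 1.83 and 2.44, against 1.87 and 2.32. Among shorter genes it was 0 and 2.17, against 0 and 1.89. The window of Wnt5b also holds all or part of the protein-coding genes Fbxl14 and Gm52875.

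Regions where peaks of both replicates overlapped lay in fewer members than the 35 for Mgea5 and 25 for Panx2 that had a peak of each. Mgea5 had 207 such regions in 31 members, against 71.8% of all protein-coding genes with one, or 14 per 100 kb of window, against 9.43. Panx2 had 38 in 17 members, against 39.5% of all protein-coding genes, or 2.56 per 100 kb, against 1.96. Polr1c had 2, against 0.69% of all protein-coding genes. A region needed an overlap of only 1 base, so these counts also depend on how much of the windows each list covered. The Mgea5 lists covered 26.5% and 17.4% of the member windows, against 17.5% and 13.3% of all protein-coding windows. For Panx2 it was 3.90% and 29.4%, against 4.84% and 16.2%. Per 100 kb Mgea5 had 11.7 regions in ligand genes, 12.8 in receptor genes and 18 in inner pathway genes. The Mgea5 regions with the highest folds were inside Fzd1 (2.09 and 2.14), Ctnnb1 (1.85 and 2.36) and Lrp6 (2.26 and 1.91). The first Panx2 region, a merged stretch of 4781 bases at the start of Axin2 (1.98 and 2.36), reached over the start base through its replicate 2 peak only, and the next lay before the start of Tcf7l2 (1.93 and 2.41). The Axin2 region was also met by a peak of each Mgea5 replicate and of Polr1c replicate 2. The 5 members with no Mgea5 region of both replicates were Wnt1, Wnt2, Wnt8b, Fzd2 and Fzd4, all of which but Fzd2 had a peak of each replicate somewhere in the window.

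Between the Mgea5 and Panx2 lists the overlap was also taken base by base. In the member windows 32.5% of the bases under Mgea5 replicate 2 were also under Mgea5 replicate 1, which covered 26.5% of the windows. Of the bases under Mgea5 replicate 2, 35% were under Panx2 replicate 2, which covered 29.4% of the windows. Over all protein-coding windows the same shares were 25.5% and 22.6%, with cover of 17.5% and 16.2%. Of the bases under Panx2 replicate 1, 28.6% were under Panx2 replicate 2, against 15.3% over all protein-coding windows, and 33.1% were under Mgea5 replicate 1, against 18.5%. For Panx2 replicate 2 both shares were slightly below its own cover, 29.4% of the member windows and 16.2% of all protein-coding windows. The cover of Mgea5 replicate 1 was 26.5% and 17.5%. Of the bases under Polr1c replicate 2, 59.8% were under Panx2 replicate 2, against 48% over all protein-coding windows, and 50% were under Mgea5 replicate 1, against 43.9%.

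Polr1c peaks of both replicates lay in 2 of 36 members, Wnt7a and Fzd1, against 1.28% of all protein-coding genes, and in each case within 1 kb of a gene end, against 0.521%. These 2 members made up 5.56% of the 36. Replicate 1 had a peak in no other member, against 1.48% of all protein-coding genes with a peak in the window and 0.594% with one within 1 kb of an end. Replicate 2 had one in 26 members, against 42.6%, and within 1 kb of an end in 16, against 17.5%.

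Wnt7a, whose product is a ligand known to maintain neural progenitors, had the strongest Polr1c peak of the set. Its replicate 1 peak, chr6:91410918-91411199, began 154 bases after the start, with a fold of 3.34 and q 1. Its replicate 2 peak, chr6:91410719-91411294, began 59 bases after the start, with a fold of 4.62 and q 4.42e-05. The first peak lay wholly inside the second, so the replicates marked the same place, although only the peak of replicate 2 passed a q of 0.01. The same stretch was under Mgea5 replicate 1 (fold 1.65), Panx2 replicate 1 (1.77) and Panx2 replicate 2 (2.23) and under no Mgea5 replicate 2 peak. The lncRNA gene Gm30437 lies within 200 bases of the replicate 2 peak.

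Fzd1 encodes a receptor of the beta-catenin pathway. Its replicate 1 peak, chr5:4758039-4758410, ran from 194 bases before to 177 after the start, with a fold of 3.85 and q 0.246. Its replicate 2 peak, chr5:4758153-4758313, ran from 97 before to 63 after, with a fold of 2.0 and q 0.997. The peaks overlapped over the start base itself, the printed capitals of Fzd1 being the part before it, and neither passed a q of 0.01. Fzd1 was the only member with both replicates over its start, against 0.2% of protein-coding genes.

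Fzd4 was the other member with a -log10 q of at least 2 in Polr1c replicate 2, which 3.71% of all protein-coding genes reached; in Polr1c replicate 1 no member did, against 0.475%. Its peak, chr7:89404357-89404665, ran from 9 bases before to 299 after the start, with a fold of 3.21 and q 0.00160, and replicate 1 had none there. Tmem135, a neighbouring protein-coding gene, overlaps the stretch, so the peak cannot be given to Fzd4 by itself. Replicate 2 peaks also lay over the starts of Wnt2, Fzd9 and Ctnnb1, with folds of 2.79, 2.52 and 2.80 and q of 0.498, 0.424 and 0.323. With Fzd1 and Fzd4 that made 5 of 25 starts under a replicate 2 peak, against 2.78% of protein-coding genes, and 1 under a replicate 1 peak, against 0.24%. The start used for Wnt2 lies inside its gene body, and the Wnt2 peak was 2263 bases from the nearest gene end. Axin2 had a peak whose first base was 461 after the start, with a fold of 3.40 and q 0.0141.

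In the member windows Polr1c replicate 2 had 48 peaks, 16 of them (33.3%) within 1 kb of an end, against 19% of 20670 peaks in all protein-coding windows. For the Frizzled genes it was 6 of 9, for the ligand genes 7 of 19 and for the inner pathway genes 2 of 15. Lef1 had 6 such peaks, Lrp6 4 and Apc 3, and all of them lay over 10 kb from either end. By length, of 11 members with a body of at most 10 kb, 9 had a replicate 2 peak, against 16.5% of protein-coding genes of that length, whereas of 25 longer members 17 had one, against 57.4%. At the ends it was 7 of the 11, against 12.8%, and 9 of the 25, against 20.2%. The replicate 2 peaks of Wnt2b and Wnt9a lay outside the gene body, 972 and 768 bases from it, close to the 1 kb bound of the window, and the first overlaps St7l.

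**Figure D5:**
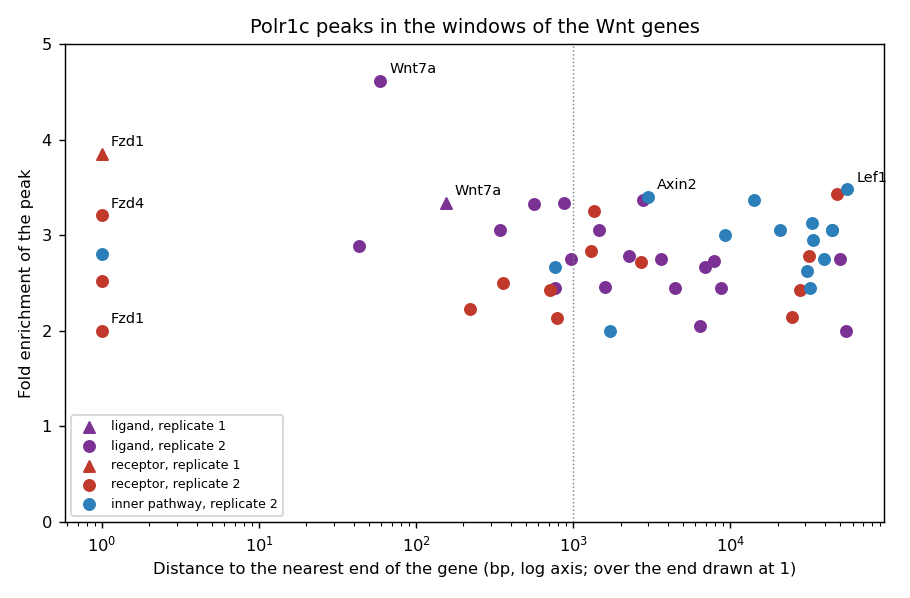
Fold enrichment of each Polr1c peak in the Wnt gene windows against its distance to the nearest end of the gene (log axis, peaks over the end drawn at 1), with triangles for replicate 1 and circles for replicate 2, coloured by role; the dotted line is at 1000 bases. The replicate 2 peak of Wnt7a, at 4.62, is the highest, and the inner pathway peaks lie mostly to the right of the line.

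Polr1c replicate 2 peaks often overlapped peaks of Panx2 replicate 2 and Mgea5 replicate 1. In the member windows 30 of 48 (62.5%) overlapped a Panx2 replicate 2 peak, against 52.1% of the peaks in all protein-coding windows, and 27 (56.3%) overlapped a Mgea5 replicate 1 peak, against 50.5%. Fewer met the other lists: 15 (31.3%) overlapped Mgea5 replicate 2, against 32.8%, and 8 (16.7%) Panx2 replicate 1, against 6.24%. Panx2 replicate 2 covered 29.4% of the member windows, against 16.2% of all protein-coding windows, and Mgea5 replicate 1 26.5%, against 17.5%. In the Frizzled genes 8 of 9 overlapped Panx2 replicate 2. Peaks with no overlap with any other list numbered 8 (16.7%), against 19.3%, and included 2 of the 6 in Lef1.

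The wider pathway was read from a list of 63 other Wnt pathway genes, made with earlier results of these data known. Both Mgea5 replicates had a peak in 60 of them, against 82% of all protein-coding genes, both Panx2 replicates in 47, against 57.1%, and both Polr1c replicates in 1, against 1.28%. Their median body was 35.4 kb, against 17.2 kb over all protein-coding genes. By role, both Panx2 replicates had peaks in 2 of 3 genes of ligand export and release, 11 of 15 genes of secreted modulators, 9 of 10 membrane regulators, 8 of 12 cytoplasmic components, 10 of 11 nuclear components, 6 of 7 planar polarity genes and 1 of 5 target genes, a group of short genes with a median body of 4 kb. Their median cover was 24.4% and 14.2% for Mgea5 and 3.69% and 26.1% for Panx2. The medians of the 36 genes were higher in both Mgea5 lists and in Panx2 replicate 2 and lower in Panx2 replicate 1.

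The gene with both Polr1c replicates was Prickle1, a planar polarity gene, with folds of 3.92 and 13.1. Of these only the replicate 2 peak passed a q of 0.01. Its replicate 2 peak, chr15:93595876-93596670, was centred at -371 bases from the start with q 1.16e-35, smaller than that of the Wnt7a peak. Wls, which carries Wnt ligands to the cell surface, had a place about 1 kb past its end where 4 lists met with a -log10 q of at least 2. There the peaks were chr3:159938147-159939661 in Mgea5 replicate 1 (fold 1.78), chr3:159939430-159939643 in Mgea5 replicate 2 (1.75), chr3:159939430-159939672 in Panx2 replicate 2 (2.58) and chr3:159939444-159939662 in Polr1c replicate 2 (2.44). In the 36 genes no place reached that q in more than 1 list. Dvl1, a cytoplasmic transducer, Znrf3, a ligase that removes Frizzled from the membrane, and Rspo2, a secreted ligand that opposes it, each had a Polr1c replicate 2 peak of -log10 q of at least 2, with folds of 4.49, 3.39 and 3.73.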

How the data were processed

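Chromatin from cultured neural progenitor cells was immunoprecipitated for Mgea5, Panx2 or Polr1c and sequenced, with 2 samples a protein. Per the submitters' processing notes, Trim Galore, Bowtie2 2.3.5, MACS3 3.0.0a5 and build mm10 were used. Control, cut-offs, pooling and read depth were not given in the sources used here. Peak lists were used: the authors deposited 1 list per sample, taken as replicates 1 and 2 by the numbers in the list names. It gives each peak a fold (a linear ratio over background), a -log10 p and a -log10 q, all the authors' own values, used here only to describe peaks within a list. In the files, the lowest -log10 p was 1.00 in each Mgea5 and Panx2 list and 2.00 in each Polr1c list. No column of other samples was used.

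Windows of the gene body with 1 kb on either side were set from the RefSeq gene table of GRCm38.p6, and start sites and promoters from the RefSeq promoter table of the same build (25 of 36 members matched). In Wnt2, Wnt6, Wnt9b and Axin2 that start lies inside the gene body, over 1 kb from either end. Cover is the percent of window bases under peaks. A region of both replicates needs an overlap of at least 1 base. Python 3.11.15, numpy 2.4.6 and pandas 2.3.3 were used. The interval code was tested on simulated intervals.

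The members and gene lists were chosen with earlier results of these data known, so counts are descriptions and no test was run. Beyond counts by role, values are given for the first 5 members of each protein by geometric mean of the highest folds, for members with a -log10 q of at least 2, with Polr1c peaks in both replicates, or with no peak in some Mgea5 or Panx2 list. Other members and other pathway genes named were chosen after their values were seen, or for a -log10 q of at least 2. Alternatives changed the q, p and fold minimum, the list length, the window, the overlap and the replicates and members used.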

Additional observations from a re-analysis of the deposited data

How the results depend on the processing

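Of 117 recomputed values, 37 moved, a count by over 1.5 times or a median cover by over 1 SD of the 2 replicate medians; the cause was not tested. That SD, 20.4 percentage points for Panx2 and 0.485 for Polr1c, exceeds the medians of 18% and 0.343%, so no fall of these could count as moved: Panx2 cover was 0% with a -log10 q of at least 2, 3.20% with a -log10 p of at least 2, 6.5% with a fold of at least 2 and 9.03% with lists of equal length, and Polr1c cover was 0% with that q or with equal length. With a -log10 q of at least 2, no member had both replicates of Mgea5, Panx2 or Polr1c in the window or at an end, all 3 counts of regions were 0 and the Mgea5 median cover was 0%. With a -log10 p of at least 2, Mgea5 gave 9 members in the window (against 16.8% of all protein-coding genes), 0 at ends, 1 region and 0.752% median cover, and Panx2 gave 0 members, 0 at ends and 0 regions. With a fold of at least 2, Mgea5 gave 11 members (against 21.4%), 0 at ends, 1 region and 0.935% median cover, and Panx2 gave 4 members (against 16.9%), 1 at ends and 0 regions. With lists of equal length, Panx2 gave 5 members at ends and 14 regions, and Polr1c 1 member in the window, 1 at ends and 1 region. With a reciprocal overlap of 50%, regions numbered 53 for Mgea5, 7 for Panx2 and 0 for Polr1c. Ends of 500 and 2500 bases gave 5 and 16 members for Panx2.

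From each replicate by itself, members at ends ranged from 8 to 36 for Panx2, from 2 to 16 for Polr1c and from 32 to 35 for Mgea5. Members in the window ranged from 25 to 36 for Panx2, from 2 to 26 for Polr1c and from 35 to 36 for Mgea5. Median cover ranged from 2.58% to 31.4% for Panx2, from 16.9% to 31.4% for Mgea5 and from 0% to 0.686% for Polr1c. Leaving out Fzd3, on the sparse part of chromosome 14, or Wnt9b, whose window overlaps that of Wnt3, was added after the data were seen, and moved no value past these bounds. No paired analysis was possible because the results come from no test. Unknown read depth limits every count.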
